A study of Mus musculus with 2 samples.

Results

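The cells described here are Aire-expressing medullary thymic epithelial cells (mTEC), the 785 cells that the deposited cell table assigned to its Aire-expressing class, out of 9185 annotated cells in 15 classes. They were set against the other 8400 annotated cells and compared by genotype. The mutant genotype, Hnf4dTEC, was Foxn1(cre/+) Hnf4a(fl/fl) Hnf4g(-/-), with 4 samples and 482 Aire-expressing cells. The other, Hnf4ctrl, was Foxn1(cre/+) Hnf4a(fl/+) Hnf4g(+/-), with 3 samples and 303 Aire-expressing cells. All 7 samples therefore carried Foxn1-cre, which recombines floxed genes in thymic epithelium, at least 1 floxed copy of Hnf4a and at least 1 null copy of Hnf4g, and no genotype without these alleles was among the groups. The strain was C57BL/6 and the age was not given. Thymic cells depleted of CD45+ cells were sorted as mTEClo, the fraction of low MHC class II surface level, without Pdpn or CD104, and each sample carried its own hash tag against H2-Kb. The samples were then run together in 1 droplet run with 10x Genomics 3' v3.1 chemistry. The labels do not say that the samples were separate animals, so p-values measure only the spread between these samples, which may be technical.

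Aire, the autoimmune regulator, is a nuclear protein through which mTEC transcribe genes that otherwise mark peripheral tissues. The products are shown to developing T cells on MHC molecules, so that self-reactive cells are deleted or become regulatory. After the Aire stage some mTEC become mimetic cells, which take on the programs of tissues such as tuft, microfold, skin or gut and liver epithelium. Hnf4a and Hnf4g encode nuclear receptors that drive gut and liver genes, and the genotype comparison asks what losing both does to mTEC.

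The Aire-expressing cells held 1646953 to 3324306 UMIs per Hnf4dTEC sample and 495183 to 3888581 UMIs per Hnf4ctrl sample, where a UMI marks 1 captured RNA molecule. A cell held a median of 18154 UMIs and 4447 genes, while the most numerous class, Tuft, had a median of 12186 UMIs. Levels are given as CPM, the UMIs of a gene per 1000000 UMIs summed over the cells of a sample. Scrublet, a doublet caller, marked 31 of the 785 cells, and 7 cells had more counts of another sample's hash tag than of their own; both were kept. The targeted genes gave little check of the labels in this class. Hnf4a had 8 UMIs in 3 of 482 Hnf4dTEC cells and 12 UMIs in 6 of 303 Hnf4ctrl cells, too few to check a label. Hnf4g transcripts were still counted, with 101, 46.1, 80.9 and 75.5 CPM in the Hnf4dTEC samples and 109, 62.4 and 89.2 CPM in the Hnf4ctrl samples. These Hnf4g levels overlapped between genotypes. The share of Aire-expressing cells with an Hnf4g UMI, at unthinned depth, did not: it was 35.1%, 31.5%, 36.5% and 37.1% in the Hnf4dTEC samples and 46.4%, 41.2% and 47.3% in the Hnf4ctrl samples. In Tuft cells of both genotypes it was 31.0%. How many other genes separate the genotypes by such a share was not counted. Which exons the null allele lacks is not given in the sources used here. In all other cells Hnf4g fell in Hnf4dTEC by 0.54 on the log2 scale (SE 0.06, adjusted p = 0.014, edgeR quasi-likelihood test).

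Of the 6 markers, Aire, Fezf2 and Ccl22 were highest in the class named for Aire, and the other 3 were higher elsewhere. The class was made by clustering these same genes, so levels against other cells are descriptions with no test. Aire (chr10:78030022-78043610, minus strand, mm10) reached 764 ± 23.1 CPM (SD, n = 7 samples), above the 439 ± 66.3 CPM of the TA class, 357 ± 49.6 CPM of Transitional cells and 257 ± 80.1 CPM of Aire-adjacent cells. The gap to TA cells was larger than the spread between samples, whereas TA and Transitional cells lay close together. Aire UMIs were found in 741 of 785 cells (94.4%), with a median of 12 UMIs a cell, a middle range of 5 to 21 and a highest value of 80. At 5000 UMIs per cell, 87.2% of Aire-expressing cells and 5.74% of Tuft cells held an Aire UMI. The source of the Aire UMIs in Tuft cells, free RNA in droplets included, was not tested. Fezf2, a transcription factor that governs a further set of tissue genes in mTEC, had 584 ± 43.9 CPM, close to the 497 ± 76.0 CPM of Aire-adjacent cells. Their spreads met.

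Hdc, which encodes the enzyme that makes histamine, had 565 ± 77.3 CPM and ranked behind the 776 ± 71.6 CPM of Ciliated cells. Cd80, a costimulatory ligand for T cells, had 101 ± 4.85 CPM, behind the 110 ± 22.0 CPM of Entero-hepato cells in 2 samples. Those 2 classes did not differ beyond their spread. Cd86, the other ligand of the pair, had 9.12 ± 5.22 CPM and UMIs in 9.43% of cells, less than the 22.2 ± 14.4 CPM of Aire-adjacent cells. Ccl22, a chemokine that draws T cells and dendritic cells, had 26.0 ± 16 CPM, beside 24.7 ± 36.6 CPM in Aire-adjacent cells. Neither gene set the class apart beyond its spread, and 71 cells held all Ccl22 UMIs.

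**Figure D1:**
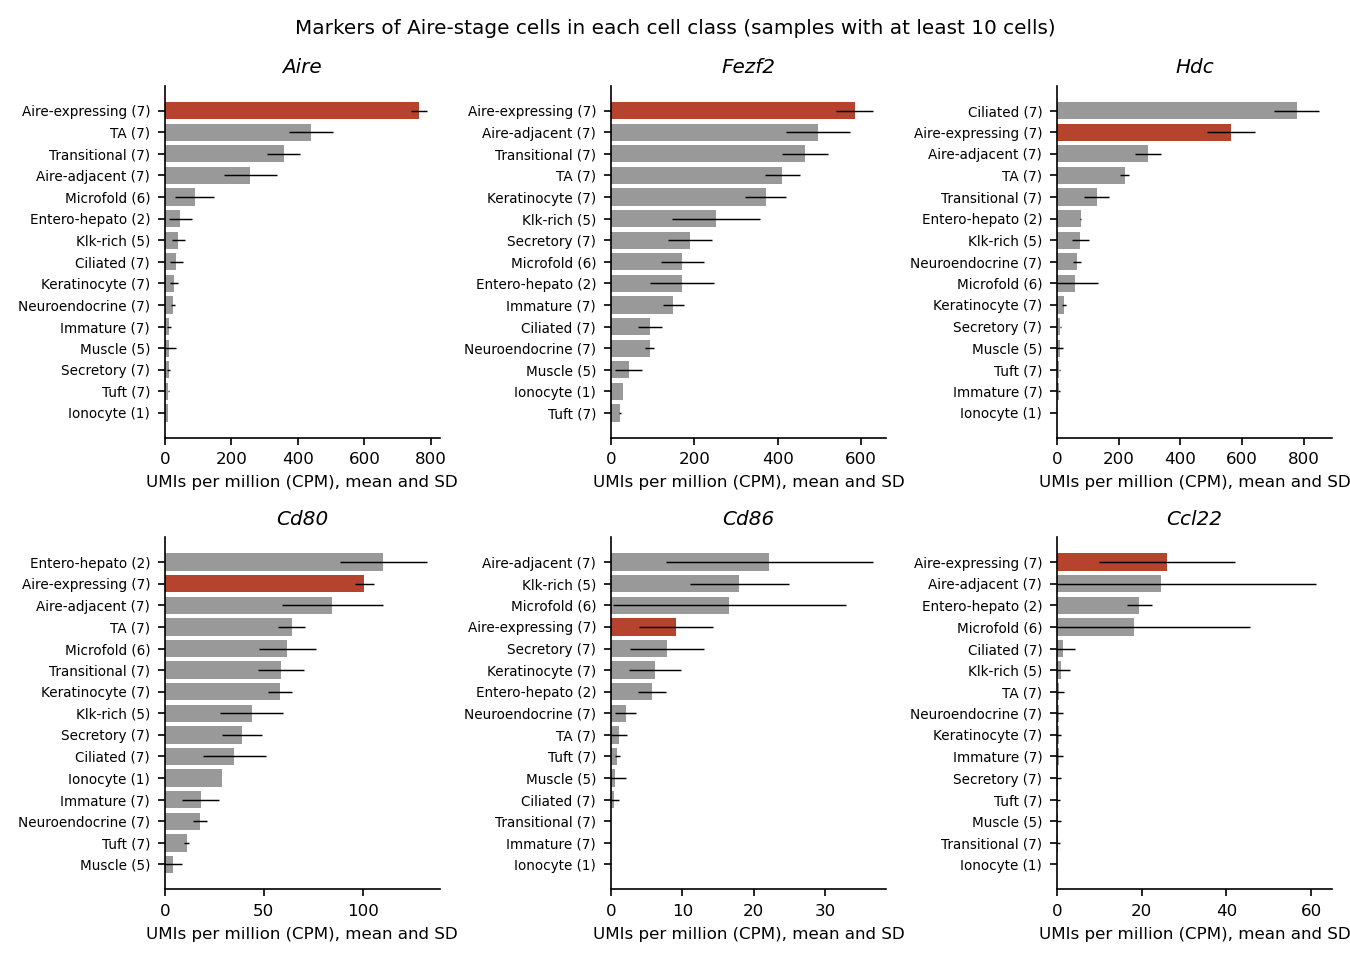
Levels of 6 markers of Aire-stage cells in each class, as mean CPM with SD over samples with at least 10 cells of the class (number of samples in brackets), with the Aire-expressing class in red. Aire and Fezf2 were highest in the Aire-expressing class (764 and 584 CPM), Hdc and Cd80 ranked behind 1 other class, and Cd86 behind 3.

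Genes of antigen presentation stood higher in Aire-expressing cells than in the rest, although the sort took cells with little MHC class II on the surface. Of 17 genes for MHC class II and costimulation, 14 were higher in Aire-expressing cells than in all other cells in each of the 7 samples, which 2560 of 12931 genes were (19.8%). Cd74, the invariant chain that escorts class II molecules, had 15240 ± 815 CPM in Aire-expressing cells and 278 ± 42.0 CPM in Tuft cells. H2-Aa, which encodes a chain of the class II molecule itself, had 4758 ± 451 CPM and 133 ± 11.8 CPM in those classes. H2-Ab1, H2-Eb1 and H2-DMb2 were also highest in this class among 15 classes. The list's median log2 ratio of Aire-expressing over other cells was 2.15, against -0.20 over all genes tested. Genes of MHC class I processing were not set apart, with a median log2 ratio of 0.01 and 2 of 11 genes higher in every sample.

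The tumour necrosis factor receptor and NF-kB pathway, by which signals from lymphocytes mature mTEC, was also higher than in the rest. Of its 20 genes, 11 were higher in every sample and 3 were lower in every sample, where 4637 of 12931 genes were lower (35.9%). Nfkbia, an inhibitor that NF-kB itself induces, had 1193 ± 125 CPM in Aire-expressing cells and 481 CPM in the others. Relb, the subunit that mTEC need, had 220 ± 15.2 CPM and 86.5 CPM in them. Of 14 chemokine and cytokine genes, 11 were higher in every sample, led by ligands that interferon induces and that draw T cells. Cxcl10 had 844 ± 270 CPM in Aire-expressing cells and 137 CPM in the others, and Cxcl9 had 727 ± 252 CPM and 57.0 CPM in them. Ccl19 and Ccl21a were not used because each symbol names more than 1 gene of the matrix.

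Known protein partners of Aire were mostly not higher in the class. Of 20 partner genes 1 was higher in every sample and 12 were lower in every sample, where 19.8% and 35.9% of all genes tested were. The 1 was Sirt1, the deacetylase that acts on Aire, with 305 ± 48.6 CPM in Aire-expressing cells and 53.6 CPM in the others. Top1, a topoisomerase, had 201 ± 16.7 CPM and 296 CPM, and Chd4, a chromatin remodeller, had 100.4 ± 14.1 CPM and 182 CPM. Cell-cycle genes were low against the pool of other cells, which includes 476 TA cells. Of 16 proliferation genes none was higher in every sample and 9 were lower in every sample. Mki67 had 9.01 ± 4.37 CPM in Aire-expressing cells and 30.3 CPM in the others. Its UMIs were in 82 of 785 Aire-expressing cells (10.4%).

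Over 15467 genes, the mean profile of Aire-expressing cells was closest to Aire-adjacent cells (Spearman rho 0.87), TA cells (0.85) and Transitional cells (0.83), and less like Tuft (0.72) and Ciliated cells (0.65). Depth differs between these classes, and the values are descriptions. Of transcription factors that define mimetic cells, Cdx1, known from the gut, had 268 ± 14.7 CPM and was highest in this class. Hnf4g had 80.5 ± 21.7 CPM and ranked 9 among 15 classes, below Entero-hepato cells with 795 ± 182 CPM and Microfold cells with 591 ± 237 CPM.

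The genes that stood farthest above the other cells were a mixture of tissue products. The rule took the 20 genes of at least 50 CPM with the largest median ratio. They included Mt4 and Mt3, metallothioneins of squamous epithelium and of brain. Hba-x is an embryonic haemoglobin chain, Crabp1 a retinoic acid binding protein, and Obp2a an odorant binding protein. Gast, Gal and Cga encode hormone precursors (gastrin, galanin and the common chain of pituitary hormones), Bglap encodes osteocalcin of bone, and Apoa1 encodes a lipoprotein of liver and gut. Prss29, Ccl1, S100a8, Defb19, Gm17416, Igfbp6, Mfap5, Crhbp, Cpne4 and Ly6g completed the set. Of the 20, 19 were highest in the Aire-expressing class, and Apoa1 ranked behind Entero-hepato cells.

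Mt4 led with a median log2 ratio of 6.14, from 352 ± 176 CPM in Aire-expressing cells and 2.77 ± 1.48 CPM in the others. Such levels can come from few cells of the class. Mt4 had UMIs in 52 of 482 Hnf4dTEC and 28 of 303 Hnf4ctrl cells, with 672 of its 2531 Hnf4ctrl UMIs in 1 cell. Hba-x was found in 20 and 14 of these cells, and Apoa1 in 36 and 23. S100a8, which encodes a calcium-binding protein of neutrophils, was the most abundant, with 2298 ± 601 CPM and 94.0 ± 62.7 CPM. Samples varied widely. Bglap, Gast and Apoa1 were higher than in the other cells in 6 of 7 samples and the other 17 genes in 7 of 7. The 10 genes lowest against the rest were Spink5, Dapl1, Slitrk6, Gnat3, Slit2, St18, Gp2, Gnb3, Mctp1 and Rgs13. They included Gnat3 (90.1 ± 81.8 CPM and 1030 ± 218 CPM), which carries taste signals in tuft cells, and Gp2 (21.6 ± 12.2 CPM and 293 ± 64.9 CPM), a receptor of microfold cells.

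**Figure D2:**
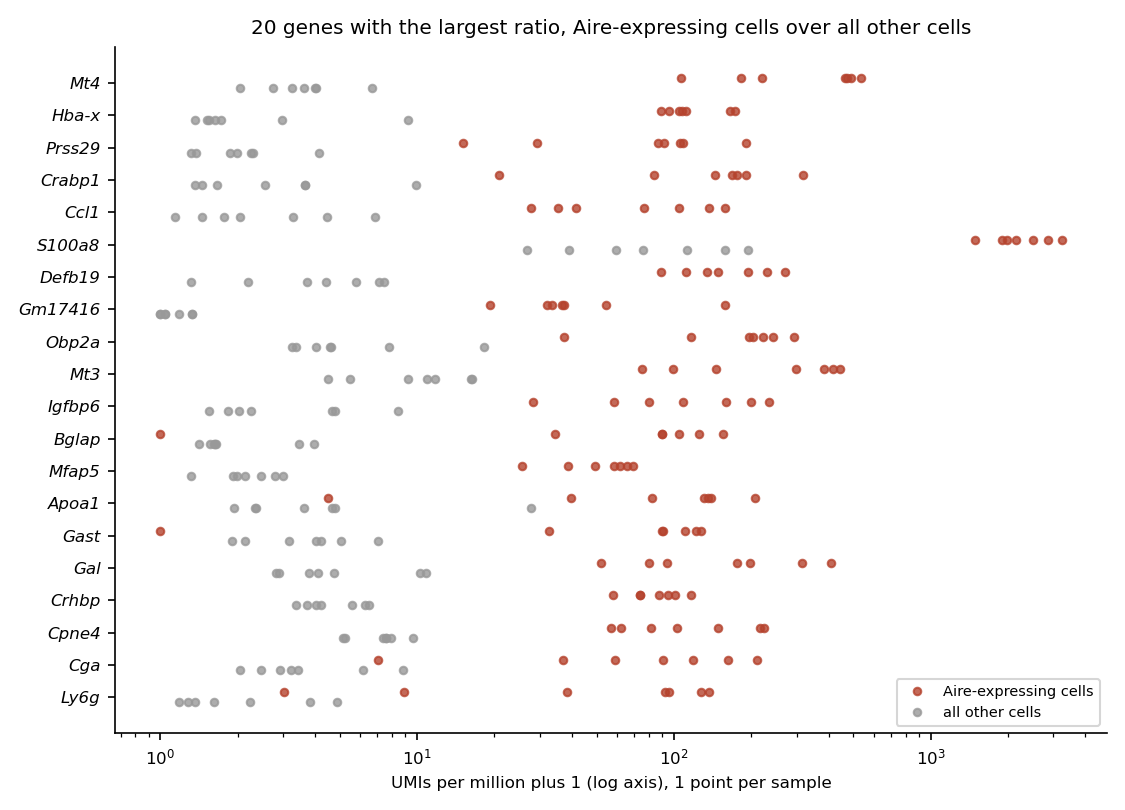
The 20 genes with the largest ratio of Aire-expressing cells (red) over all other cells (grey), with 1 point per sample and CPM plus 1 on a log axis. S100a8 was the highest at 2298 CPM on average, and in Bglap, Gast and Apoa1 1 of 7 Aire-expressing points lies at or below the other cells.

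Antigen genes ranged from those found in nearly every cell to those found in 1 cell. Csn2, the milk protein beta-casein and an antigen gene that depends on Aire, had UMIs in 711 of 785 cells (90.6%). In Tuft cells it had UMIs in 11.9% of cells, and at 5000 UMIs per cell the shares were 81.3% in Aire-expressing and 5.59% in Tuft cells. S100a8 was found in 415 cells (52.9%), of which 47 held 50% of its UMIs, with 879 UMIs in the highest cell. Csn2 was thus spread over nearly the whole class and S100a8 was concentrated.

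Ins2, an insulin gene of pancreatic beta cells, had UMIs in 34 cells (4.33%) with 5 cells holding 50% of its 496 UMIs. Its share in Tuft cells was 1.82%. Tff3, a trefoil peptide of mucus, was found in 117 cells (14.9%). Krt10, Resp18 and Maoa, which depend on Fezf2, were found in 253 (32.2%), 234 (29.8%) and 216 (27.5%) cells. Mup1, a urinary protein of liver, was found in 2 cells and Rbp3, a retinal protein and eye autoantigen, in 1 cell, which is at most 3 UMIs in any 1 cell. Of 9 antigen genes known to depend on Aire, 4 were higher in Aire-expressing than in other cells in every sample. Over all genes tested, 19.8% were higher and 35.9% lower in every sample, and lists this short cannot be told well from those shares. Of 7 that depend on Fezf2, 3 were higher and 2 lower in every sample: Coch, Calb1 and Maoa were higher, Resp18 and Krt10 lower.

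**Figure D3:**
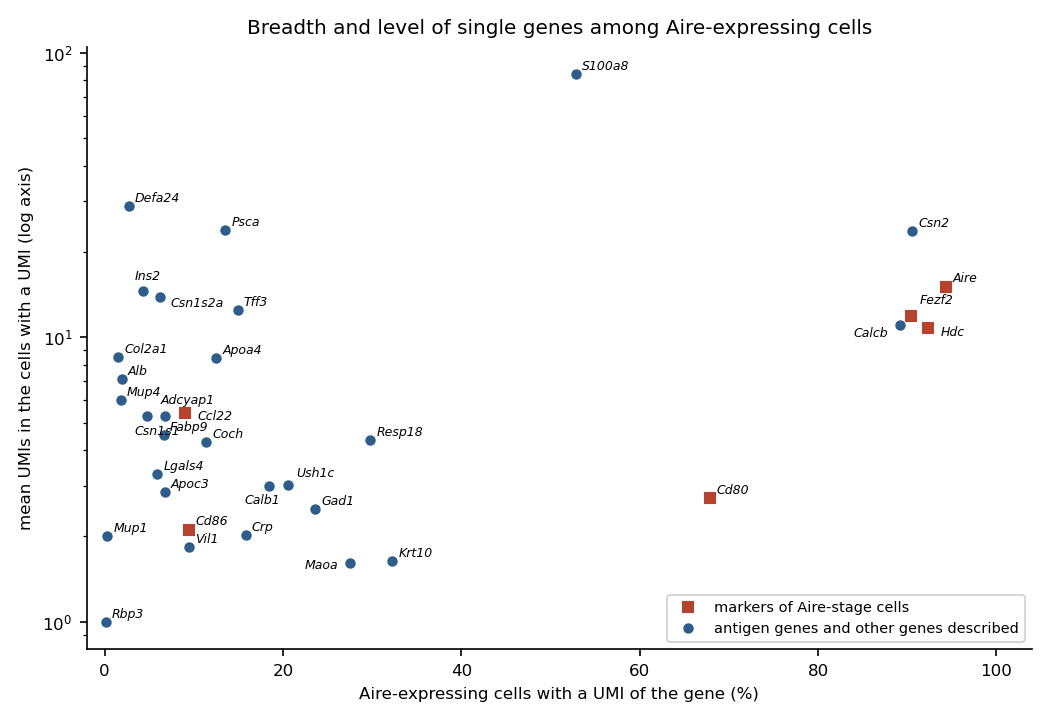
For each gene, the share of the 785 Aire-expressing cells with a UMI and the mean UMIs in those cells (log axis), with the markers as red squares. Aire, Fezf2, Hdc, Csn2 and Calcb lie at the right, between 89.2% of cells for Calcb and 94.4% for Aire, S100a8 is at 52.9%, while Ins2, Defa24 and Psca lie at the left with many UMIs per positive cell.

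Within the class, Aire UMIs and genes per cell were weakly related. Over 775 cells brought to 5000 UMIs, Spearman's rho between Aire UMIs and genes detected was -0.16. Within samples it ran from -0.20 to -0.13 in Hnf4dTEC and from -0.51 in 28 cells to -0.05 in 206 cells in Hnf4ctrl. Over all 775 cells it was 0.22 between Aire and Hdc, 0.14 between Aire and Fezf2 and 0.08 between Aire and Cd80. These are weak values over cells of 7 samples with shared depth, given as descriptions.

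Neither the size of the class nor its Aire level differed detectably between genotypes. The class made up 5.87%, 6.46%, 8.47% and 12.4% of the cells of the Hnf4dTEC samples and 3.50%, 7.43% and 13.1% of those of the Hnf4ctrl samples. Both groups spanned low and high shares and overlapped widely. The means were 8.30% ± 2.94 and 8.01% ± 4.83 (SD, n = 4 and n = 3), a difference of 0.284 percentage points (two-sided exact permutation p = 0.943 over 35 splits, whose smallest p is 0.0286). A share of sorted cells cannot tell more cells of this class from fewer of another. Aire had 743, 768, 808 and 766 CPM in the Hnf4dTEC samples and 737, 770 and 755 CPM in the Hnf4ctrl samples. The levels overlapped, and the log2 fold change was 0.07 (SE 0.06, unadjusted p = 0.247, edgeR quasi-likelihood test over all genes).

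Once cells were brought to 5000 UMIs, 87.7% ± 2.38 of Aire-expressing cells in Hnf4dTEC and 86.7% ± 3.04 in Hnf4ctrl held an Aire UMI (exact permutation p = 0.686, n = 4 and 3). Fezf2 averaged 594 ± 28.0 CPM and 570 ± 64.0 CPM, Hdc 544 ± 44.8 CPM and 592 ± 114 CPM, and Cd80 99.7 ± 3.37 CPM and 102 ± 6.90 CPM in Hnf4dTEC and Hnf4ctrl. Cd86 averaged 12 ± 4.06 CPM and 5.27 ± 4.27 CPM, and Ccl22 24.5 ± 19.1 CPM and 28.1 ± 14.6 CPM. Each of the 6 markers overlapped between genotypes, and none had an unadjusted p under 0.05. The 17 genes of MHC class II and costimulation had a median log2 fold change of 0.01, and 0 of them had an unadjusted p under 0.05.

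No gene passed the threshold between genotypes in Aire-expressing cells. Of 12931 genes tested, 0 (0%) had an adjusted p under 0.05 with edgeR's quasi-likelihood test. At an unadjusted p under 0.05 there were 334 lower genes (2.58%) and 332 higher genes (2.57%). DESeq2 called 48 genes among 647 for which it gave an adjusted p (7.42%), 2 lower (0.309%) and 46 higher (7.11%). The 2 lower were Pard3b and Npc2, a cholesterol carrier of lysosomes. Of the 46 higher, 41 were ribosomal protein genes and the others included Calcb, Mt1, Thrsp and Hsp90ab1.

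The genes nearest to the threshold are given by a rule of 5 in each direction, and none of them passed with edgeR. Psca, which encodes a glycolipid-anchored surface protein first known from prostate and stomach, had 128, 99.0, 136 and 144 CPM in the Hnf4dTEC samples and 242, 239 and 241 CPM in the Hnf4ctrl samples. The genotypes did not overlap (log2 fold change -0.88, SE 0.12, unadjusted p = 8.73e-05, adjusted p = 0.393, edgeR). Its UMIs came from 55 of 482 Hnf4dTEC cells and 51 of 303 Hnf4ctrl cells, and 13 cells held 50% of them. Serinc3, which encodes a membrane protein, had 76.1, 66.2, 80.1 and 71.9 CPM in the Hnf4dTEC samples and 129, 117 and 143 CPM in the Hnf4ctrl samples. It too was lower without overlap (log2 fold change -0.78, SE 0.12, adjusted p = 0.393, edgeR). Its UMIs were spread over 336 of 482 Hnf4dTEC and 243 of 303 Hnf4ctrl cells. Serinc3 (chr2:163623272-163645131) lies close to Hnf4a (chr2:163506808-163572910, mm10), whose floxed copies differ between the genotypes. An effect of that allele or of DNA linked to it cannot be told apart here and was not tested. Elmo1, which helps activate Rac in cell movement, had 10.0, 9.71, 15.4 and 9.02 CPM in the Hnf4dTEC samples and 46.4, 79.1 and 27.0 CPM in the Hnf4ctrl samples, without overlap (log2 fold change -2.13, SE 0.38). In all other cells Elmo1 passed, with a log2 fold change of -0.51 (SE 0.07, adjusted p = 0.029, edgeR). Tmem74bos, annotated as an antisense RNA, and 2200002D01Rik were the remaining lower genes. Tmem74bos, also on chromosome 2 (chr2:151679361-151686339), had 11 UMIs in all Hnf4dTEC cells and 76 in all Hnf4ctrl cells.

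Among the higher genes, Calcb, which encodes the neuropeptide beta-CGRP, had 564, 594, 572 and 630 CPM in the Hnf4dTEC samples and 351, 455 and 428 CPM in the Hnf4ctrl samples. Every Hnf4dTEC sample was above every Hnf4ctrl sample (log2 fold change 0.55, SE 0.10, adjusted p = 0.62 with edgeR and 0.000262 with DESeq2). Calcb was found in 88.2% of Hnf4dTEC and 90.8% of Hnf4ctrl cells, so that the shares of cells were alike and the level differed. Defa24, a defensin of gut Paneth cells with near-identical relatives that make its counts uncertain, had 61.1, 77.1, 51.0 and 64.7 CPM in the Hnf4dTEC samples and 14.1, 14.9 and 4.12 CPM in the Hnf4ctrl samples. These came from 14 and 7 cells, and 3 cells held 50% of its UMIs. Adcyap1, which encodes the neuropeptide PACAP, averaged 26.9 ± 5.17 CPM and 6.89 ± 2.92 CPM, from 28 and 25 cells. Wnt10a, a Wnt ligand, averaged 46.3 ± 4.51 CPM and 26.2 ± 1.02 CPM, and Rps12, of the small ribosomal subunit, 4334 ± 163 CPM and 3817 ± 39.3 CPM, in Hnf4dTEC and Hnf4ctrl. Of these 10 genes DESeq2 called Calcb and Rps12 (adjusted p = 0.00296 with DESeq2 for Rps12). Over all 12931 genes, 501 (3.87%) had every Hnf4dTEC sample above every Hnf4ctrl sample and 364 (2.81%) had every one below.

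No gut or liver gene passed between genotypes in Aire-expressing cells, while several fell in the other cells. Of 49 gut epithelium genes found in the matrix, 29 were tested in Aire-expressing cells and 0 passed, with a median log2 fold change of -0.21 against 0.00 over all genes. At an unadjusted p under 0.05, 4 of the 29 were lower and 0 higher. In the other cells 43 were tested and 8 passed as lower. There 81 of all 19849 genes passed (0.408%), 77 lower (0.388%) and 4 higher (0.0202%). That count was 42 without Entero-hepato cells. With 1 sample left out it was 8 without Hnf4dTEC 2 or Hnf4ctrl 2, 10 without Hnf4dTEC 1, 19 without Hnf4dTEC 3, 45 without Hnf4ctrl 3, 50 without Hnf4dTEC 4 and 110 without Hnf4ctrl 1. Among 28 genes tested in both, the medians were -0.19 in Aire-expressing cells and -1.02 in the others. The 16 lipoprotein and lipid absorption genes tested in both had medians of -0.05 and -0.77. The list was chosen with earlier results of these data known and its fall in the other cells was part of them.

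The sets of cells were then compared within 1 model that keeps the sample as a block. Of 19655 genes tested, 0 (0%) passed at an adjusted p under 0.05, and 361 lower (1.84%) and 475 higher (2.42%) genes had an unadjusted p under 0.05. Without the filter on low counts 20 of 37956 genes passed (0.0527%), 8 lower (0.0211%) and 12 higher (0.0316%), among them Apoc3, Apoa4 and Ush1c. Of 47 gut epithelium genes tested, 12 had a higher effect in Aire-expressing cells at an unadjusted p under 0.05 and 0 a lower one.

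The apolipoprotein genes Apoc3 and Apoa4, whose products coat particles of absorbed fat, were among the 5 higher genes with the smallest p. Apoc3 had 5.56, 9.11, 7.48 and 4.21 CPM in the Aire-expressing cells of the Hnf4dTEC samples and 16.2, 4.40 and 21.1 CPM in those of the Hnf4ctrl samples. In the other cells it had 0.691, 1.30, 1.09 and 0.437 CPM in Hnf4dTEC and 11.3, 34.9 and 51.4 CPM in Hnf4ctrl. The genotypes overlapped in Aire-expressing cells and were far apart in the others. The log2 fold changes were -1.09 (SE 0.52) and -5.22 (SE 0.55), and their difference was 4.27 (SE 0.63, unadjusted p = 6.97e-05, adjusted p = 0.259, edgeR).

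Apoa4 had 34.4, 68.6, 76.5 and 29.8 CPM in the Aire-expressing cells of the Hnf4dTEC samples and 62.6, 43.9 and 77.4 CPM in those of the Hnf4ctrl samples. In the other cells it had 2.03, 1.98, 2.89 and 2.90 CPM in Hnf4dTEC and 13.3, 22.3 and 49.3 CPM in Hnf4ctrl. Again only the other cells separated the genotypes, and the difference of the log2 fold changes was 3.19 (SE 0.46, adjusted p = 0.259, edgeR), which did not pass. Apoa4 UMIs were found in 47 of 482 Hnf4dTEC cells (9.75%) and 51 of 303 Hnf4ctrl cells (16.8%) of the Aire-expressing class, and in 1.48% of Tuft cells. The Entero-hepato class, which is part of the other cells, held 0 to 2 cells in each Hnf4dTEC sample and 8 to 55 in each Hnf4ctrl sample. Without that class the difference was 2.22 for Apoc3 and 1.58 for Apoa4.

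The promoter windows of Apoa4 and of Anks4b are shown because both genes fell in the other cells and hold a match to a motif of HNF4. The motif searched was CAAAGNNCA on both strands, 1 of the forms in which HNF4 proteins bind DNA. It was found in 2089 of 32851 promoter windows of the same length in the RefSeq table (6.36%). Gut epithelium genes had it in 11 of 43 windows (25.6%), liver genes in 10 of 44 (22.7%) and lipid absorption genes in 4 of 20 (20%). Genes that passed as lower in the other cells had it in 10 of 69 windows (14.5%). It was in 1 of 5 windows of the Aire-stage markers and in 0 of 19 windows of the 20 genes highest over the other cells. These 2 sets are too small to be told from 6.36%, and no share was tested. Each window runs from 250 bases before the start site to 50 bases after it, 5′ to 3′ along the gene, from RefSeq on GRCm38.p6, with the match in capitals. The window of Apoa4 is chr9:46240594-46240893 on the plus strand, with the match beginning at position -182 from the start site. The window of Anks4b, a gene of the brush border, is chr7:120173608-120173907 on the plus strand, with the match on the opposite strand at position -59.
Apoa4: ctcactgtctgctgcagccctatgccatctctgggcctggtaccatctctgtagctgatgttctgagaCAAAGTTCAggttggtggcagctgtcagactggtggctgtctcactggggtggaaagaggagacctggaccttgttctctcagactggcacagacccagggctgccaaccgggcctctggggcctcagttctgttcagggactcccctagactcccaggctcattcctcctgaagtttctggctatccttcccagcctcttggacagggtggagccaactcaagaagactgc
Anks4b: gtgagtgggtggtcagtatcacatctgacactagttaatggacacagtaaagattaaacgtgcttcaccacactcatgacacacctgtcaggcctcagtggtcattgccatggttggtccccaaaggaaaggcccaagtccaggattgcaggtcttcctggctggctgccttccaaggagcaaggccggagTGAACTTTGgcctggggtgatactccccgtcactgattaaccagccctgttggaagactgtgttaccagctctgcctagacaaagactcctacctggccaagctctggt
A match describes these letters and does not show binding. Anks4b had 2.98 ± 0.733 CPM in Aire-expressing cells of Hnf4dTEC and 7.19 ± 4.54 CPM in those of Hnf4ctrl, too low to be tested there, and fell by 2.02 on the log2 scale in the other cells (SE 0.12, adjusted p = 0.00188, edgeR).

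Ush1c and Vil1, which encode harmonin and villin of the brush border, did not fall in Aire-expressing cells. Ush1c had 31.7, 32.8, 41.4 and 42.4 CPM in the Hnf4dTEC samples and 8.08, 28.1 and 27.0 CPM in the Hnf4ctrl samples. Each Hnf4dTEC sample was higher, as in 3.87% of all genes, but Ush1c did not pass. Its log2 fold change ran from 0.47 to 0.95 over the 15 alternatives, with no adjusted p under 0.65 (edgeR). The value of Hnf4ctrl 1 rests on 4 UMIs in 3 cells. In the other cells Ush1c had at most 1.69 CPM in the Hnf4dTEC samples and at least 3.32 CPM in the Hnf4ctrl samples. It passed there as lower (log2 fold change -1.68, SE 0.25, adjusted p = 0.037, edgeR). The difference was 2.53 (SE 0.37, adjusted p = 0.259, edgeR), and 2.17 without Entero-hepato cells. Vil1 gave log2 fold changes of 0.65 (SE 0.39) in Aire-expressing cells and -1.17 (SE 0.09) in the others.

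Mep1a, a brush border protease, was lower in both sets of cells, with 21.7, 21.3, 13.6 and 20.8 CPM in Aire-expressing cells of Hnf4dTEC and 46.4, 29.9 and 33.7 CPM in those of Hnf4ctrl. Its log2 fold change was -0.85 (SE 0.23, adjusted p = 0.626, edgeR) in Aire-expressing cells and -2.23 (SE 0.24, adjusted p = 0.014, edgeR) in the others. Pglyrp1, which binds bacterial cell wall, and Gucy1b2, a subunit of guanylate cyclase, completed the higher genes of the interaction. Psca led the lower ones, since it was higher in Hnf4dTEC among the other cells, with 23.2 to 55.1 CPM, against 13.2 to 17.8 CPM in Hnf4ctrl. The difference was -2.09 (SE 0.29, adjusted p = 0.259, edgeR). Prss2, Fras1, Pcolce and Chga were the other lower genes, with differences of -2.37, -1.71, -2.39 and -1.11 that did not pass.

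**Figure D4:**
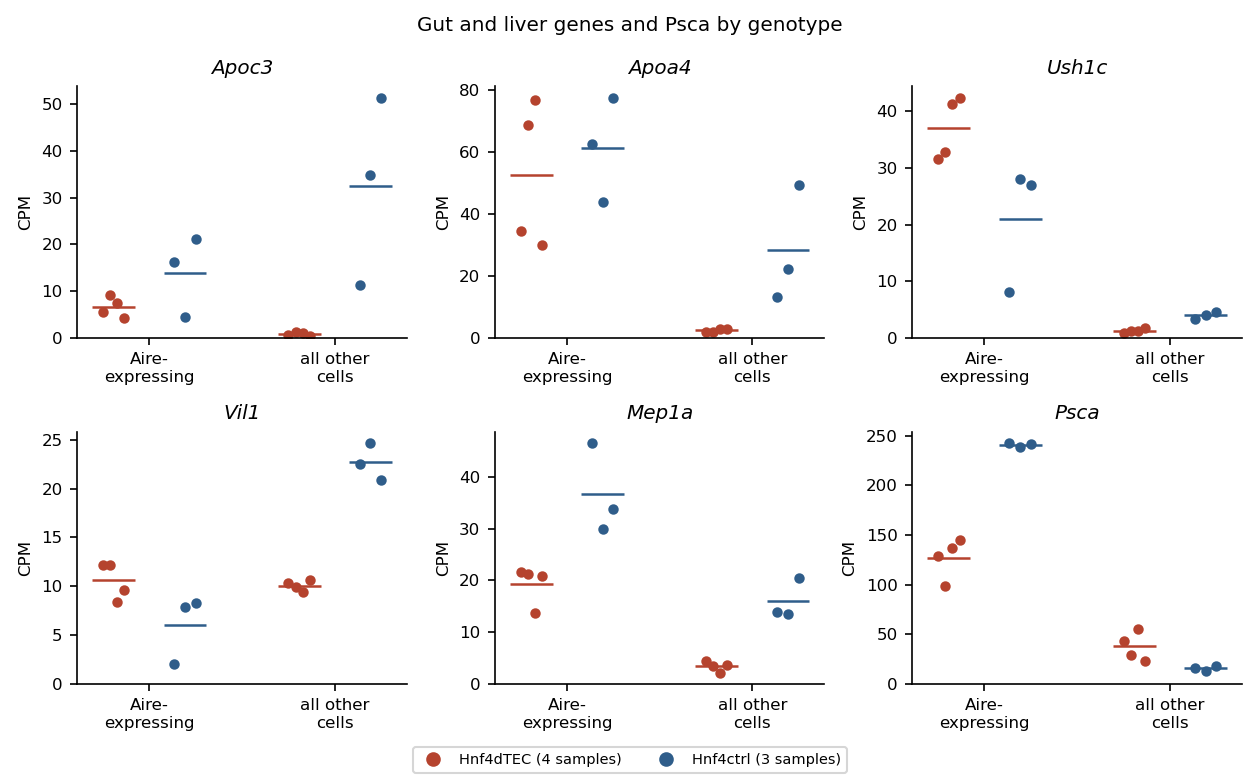
CPM of 5 gut and liver genes and Psca in Aire-expressing cells and in all other cells, with Hnf4dTEC in red and Hnf4ctrl in blue, 1 point per sample and a line at the mean. Apoc3 and Apoa4 separate the genotypes only in the other cells. Ush1c points in opposite directions and passed only in the other cells. Psca is lower in the Aire-expressing cells of Hnf4dTEC (99.0 to 144 CPM) than of Hnf4ctrl (239 to 242 CPM), where no gene passed.

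Ribosomal protein genes took a larger share of the RNA of Aire-expressing cells in Hnf4dTEC. The list of 80 genes was chosen after their values were seen and its values are descriptions. They made up 19.5%, 19.6%, 18.8% and 18.3% of UMIs in the Hnf4dTEC samples and 17.7%, 17.1% and 16.8% in the Hnf4ctrl samples. The genotypes did not overlap. All 80 genes had a positive log2 fold change, with a median of 0.19, against 0.08 in the other cells and 0.00 over all genes. None passed with edgeR, 72 had an unadjusted p under 0.05, and in 66 every Hnf4dTEC sample was above every Hnf4ctrl sample, as in 3.87% of all genes. With plain library totals in place of TMM scaling all 80 stayed positive, with a median of 0.15. Counts of single ribosomal genes are uncertain because they have many near-identical pseudogenes.

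Among other classes the share also stood apart in TA cells, with 23.1% ± 0.269 in Hnf4dTEC and 22.0% ± 0.563 in Hnf4ctrl. Transitional cells had a higher mean in Hnf4dTEC as well (23.8% ± 0.529 and 22.0% ± 1.59), but their samples overlapped. The share also overlapped in Aire-adjacent cells (8.11% ± 0.383 in Hnf4dTEC and 8.67% ± 0.860 in Hnf4ctrl) and in Tuft cells (9.83% ± 0.440 and 9.64% ± 0.724). The median share of mitochondrial UMIs was 1.12% to 1.19% in the Hnf4dTEC samples and 1.14% to 1.24% in the Hnf4ctrl samples. Malat1, a nuclear noncoding RNA, ranged from 16028 to 17661 CPM in Hnf4dTEC and from 12179 to 21694 CPM in Hnf4ctrl. Both measures overlapped, and their part in the ribosomal share was not tested.

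Aire-expressing cells of Hnf4dTEC also held slightly fewer genes at equal depth. At 5000 UMIs per cell the sample medians were 2095, 2077, 2053.5 and 2095 genes in Hnf4dTEC and 2130, 2140 and 2121 genes in Hnf4ctrl. The groups did not overlap, with means of 2080 ± 19.7 and 2130 ± 9.50 genes (SD, n = 4 and n = 3), a difference of -50.2 genes (two-sided exact permutation p = 0.0286, the smallest that 35 splits allow). Adjusted over the 3 single values tested in this way, the p was 0.0857 and did not pass. With 2500 UMIs the difference was -18.1 genes (exact permutation p = 0.114, n = 4 and 3), and the groups overlapped. As the expected number of genes at 5000 UMIs, computed with no random draw, the difference was -53.5 genes. By that measure, with ribosomal protein genes left out of the cells, it was -33.8 genes and the groups overlapped (exact permutation p = 0.286, n = 4 and 3). Leaving them out was a choice made after seeing the data, and the 5000 UMIs were then all from other genes. Among 11 classes with enough cells, Neuroendocrine cells also had fewer expected genes in each Hnf4dTEC sample (-34.8), and Microfold cells had more (56.5). Aire-adjacent and TA cells differed by -54.6 and -39.8 genes, with overlap between genotypes. Immature and Keratinocyte cells went the other way, by 18.7 and 13.2 genes, also with overlap. A difference of this size was thus not particular to Aire-expressing cells.

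**Figure D5:**
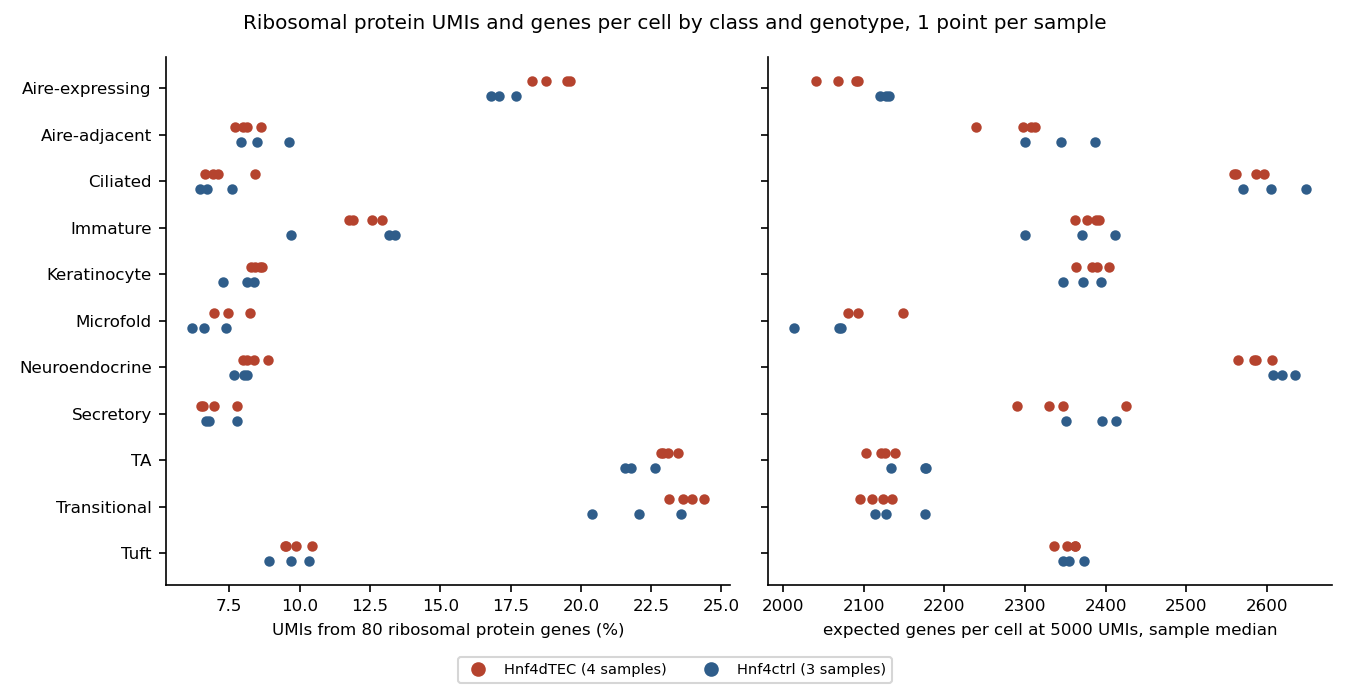
Left, share of UMIs from 80 ribosomal protein genes. Right, sample median of the expected number of genes per cell at 5000 UMIs. Each point is a sample with at least 10 cells of the class, with Hnf4dTEC in red above Hnf4ctrl in blue. In Aire-expressing cells, in the top row, the genotypes are apart on both axes, with 18.3% to 19.6% against 16.8% to 17.7% of UMIs.

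Lists of markers of other cell types were lower or higher in Aire-expressing cells than in the others, depending on the list, with the values that follow as sums over each list. Tuft markers summed to 468 to 901 CPM in Hnf4dTEC and 508 to 709 CPM in Hnf4ctrl samples, against 6475 to 8991 CPM and 5246 to 9010 CPM in their other cells. Of 12 thymocyte markers, Rag2 was at 0 and the sum was 26.0 to 48.9 CPM in Hnf4dTEC and 36.4 to 55.4 CPM in Hnf4ctrl. Red blood cell genes summed to 163 to 309 CPM in Hnf4dTEC and 179 to 317 CPM in Hnf4ctrl. These 3 lists overlapped between genotypes. Keratinocyte, secretory and ciliated markers also summed to less in Aire-expressing than in other cells, and overlapped between genotypes.

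Markers of cortical thymic epithelium summed to more in Aire-expressing cells, with 598 to 706 CPM in Hnf4dTEC and 693 to 1357 CPM in Hnf4ctrl, against 259 to 319 CPM and 315 to 369 CPM in their other cells. Fibroblast genes summed to 84.9 to 114 CPM in Hnf4dTEC and 96.2 to 160 CPM in Hnf4ctrl, against 14 to 16.6 CPM and 15.4 to 27.6 CPM in their other cells. Myeloid genes, led by Lyz2, a lysozyme gene with 559 ± 173 CPM, summed to 549 to 897 CPM in Hnf4dTEC and 414 to 800 CPM in Hnf4ctrl, against 198 to 247 CPM and 209 to 331 CPM in their other cells. These lists overlapped between genotypes.

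The B cell, muscle, entero-hepato and thymic epithelium lists did not overlap between genotypes. Many lists were compared in this way. Among single genes, 3.87% had every Hnf4dTEC sample above every Hnf4ctrl sample and 2.81% had every one below. B cell genes summed to 286 to 387 CPM in Hnf4dTEC and 184 to 263 CPM in Hnf4ctrl, against 172 to 203 CPM and 146 to 169 CPM in their other cells, led by Igkc, an immunoglobulin light chain gene with 209 to 277 CPM in Hnf4dTEC and 118 to 180 CPM in Hnf4ctrl. Other B cell markers had lower levels, with Ms4a1 at 6.27 ± 9.76 CPM and Cd79a at 15.6 ± 13.0 CPM. Muscle genes summed to 237 to 430 CPM in Hnf4dTEC and 219 to 228 CPM in Hnf4ctrl, led by Ttn, the giant protein titin of the sarcomere. Sample 2 of Hnf4dTEC gave the 430 CPM, and the other Hnf4dTEC samples lay between 237 and 268 CPM. Thymic epithelium genes, led by the keratins Krt8 and Krt18, summed to 3048 to 3219 CPM in Hnf4dTEC and 3384 to 3647 CPM in Hnf4ctrl. The entero-hepato markers summed to 257 to 280 CPM in Hnf4dTEC and 336 to 503 CPM in Hnf4ctrl. The largest part of that gap was Saa1, an acute-phase protein, with 52.7 ± 24.2 CPM and 131 ± 22.0 CPM (adjusted p = 0.62, edgeR). The part of these markers in the genotype values was not tested.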

How the data were processed

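The deposited matrix held UMI counts per gene and cell, not normalized, which the authors made with Cell Ranger against mm10. Cell Ranger was version 6.1.0 and Seurat version 4.0.2 per the submitters' processing notes, while version 7.0.0 stands in the matrix's own header for Cell Ranger. Whether strand or introns were counted is not given in the sources used here. Classes and hash samples came from the authors' deposited cell table, and the 8904 barcodes without a class were left out. The members and gene lists were chosen with earlier results of these data known.

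Counts of the Aire-expressing cells were summed per sample, with a filter on low counts (filterByExpr), TMM scaling and edgeR 4.0.16 (quasi-likelihood test, Benjamini-Hochberg adjustment over all genes, threshold 0.05). The second model used both sums of each sample, with sample as a block and the interaction of genotype and class. CPM were computed from plain totals. Single values were compared with exact permutation tests. To compare genes per cell, cells were thinned to 5000 UMIs, and shallower cells were left out. Scrublet was run through scanpy 1.11.5. Scripts were tested on simulated counts. Alternatives were DESeq2 1.42.0, other scalings and filters, a replicate block, cells without doublets, and each sample left out in turn. Named genes were the markers, the targeted genes, the 20 highest and 10 lowest against the other cells, and for each test the 5 smallest p in each direction where fewer passed. Genes of the lists and of the ribosome named beyond this were chosen after their values were seen. Equal replicate numbers did not pair samples in the labels. Intervals between samples are SDs, and depth per sample limits low genes.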

Additional observations from a re-analysis of the deposited data

Results flagged for a closer look

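Among 32 sets of values of the Hnf4dTEC samples examined, 2 held a sample far from the others, and chance alone gives about 1 such set in 20. The Hnf4ctrl samples were not examined in this way. Elmo1 had 15.4 CPM in the Aire-expressing cells of sample 3 of Hnf4dTEC, while the other Hnf4dTEC samples lay between 9.02 and 10.0 CPM. Mep1a had 13.6 CPM in the same sample, while the other Hnf4dTEC samples lay between 20.8 and 21.7 CPM. Both values were on the same side of every Hnf4ctrl sample as the rest of their group.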

How the results depend on the processing

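Between genotypes, 0 genes passed in Aire-expressing cells under every edgeR alternative, with 1 replicate left out included, and DESeq2 called 48. The difference between Aire-expressing and other cells gave 20 genes with no filter on low counts and 0 to 2 with 1 sample left out. In the other cells, 81 genes passed, 42 without Entero-hepato cells, and 8 to 110 with 1 sample left out. The difference in share of the class ran from -1.97 to 2.83 percentage points with 1 sample left out. Genes per cell differed by -18.1 with 2500 UMIs and by -48.1 for the mean over cells. The expected number of genes differed by -53.5 with ribosomal protein genes and by -33.8 without them. With 1 sample left out the difference in thinned cells was -55.2 to -41.3. The exact permutation p was then 0.0667 to 0.1, the smallest that those designs allow. The share of cells with an Aire UMI differed by -0.618 percentage points with 2500 UMIs and by -0.68 to 2.30 with 1 sample left out.

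The labels do not pair samples by replicate number. Correlations of deviations were 0.036, 0.005 and 0.056 between equal numbers and -0.058 to 0.026 between unequal ones. Values this low do not settle whether equal numbers were paired. With a replicate block the share of the class differed by -1.08 percentage points and genes per cell by -55.2, and 0 genes passed in Aire-expressing cells. Of 440 alternatives for 32 gene comparisons, 13 turned the direction. Cd80 had log2 fold changes of -0.028 with library totals, -0.0018 with the replicate block, -0.0073 without doublets and -0.0072 without cells of another top hash tag. Apoa4 had 0.0084 with the replicate block. Over all 15 alternatives of each gene, those with 1 sample left out included, Cd80 ran from -0.028 to 0.039 and Hdc from -0.14 to 0.082. Ccl22 ran from -0.85 to 0.27, Hnf4g from -0.33 to 0.029 and Apoa4 from -0.47 to 0.070. The causes were not tested. Depth limits genes of few UMIs, such as Hnf4a and Anks4b, most of all in sample 1 of Hnf4ctrl with 28 cells.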
